A study of Mus musculus with 12 samples.

Results

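The genes described here are Rhox2a, Rhox5, Rhox6, Rhox8 and Rhox9, 5 of the 31 symbols of the reproductive homeobox (Rhox) family among the 20308 genes of the table. They were chosen by measured values, for their difference between Dnmt1cKO and Control libraries, and Rhox8 for its opposite direction to the other 4. Their values in that comparison are therefore a description, with no p, and nothing is read from their calls. Rhox genes encode homeodomain transcription factors and lie in a cluster on the mouse X chromosome. They are known for expression in testis, epididymis, ovary and placenta, and most of them are kept silent in the embryo proper by DNA methylation. Rhox5 (Pem) is the founding member and is expressed in Sertoli cells. Rhox6 and Rhox9 (Psx1 and Psx2) are a closely related pair known from placenta and germ cells, and Rhox8 is known from Sertoli and granulosa cells. Rhox2a is one of several near-identical Rhox2 copies.

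RNA was sequenced from urogenital sinus epithelium of C57BL/6J mouse embryos at E15.5, the tissue that lines the precursor of bladder neck, urethra and prostate. The groups were Dnmt1cKO (8 libraries), in which a Cre driven by Shh deleted Dnmt1 in that epithelium, and Control (4 libraries) from wildtype embryos. Dnmt1 encodes the methyltransferase that copies DNA methylation onto newly made strands. The Shh promoter restricts the deletion to cells that express Shh or descend from such cells; which exons were deleted is not stated. Epithelium was freed from stroma with trypsin, and the embryos of a harvest shared a lysate, so a library stands for a pool of embryos. Whether separate libraries came from separate pools is not stated, so the spread between libraries may be technical.

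Levels are CPM, the expected count of a gene per 1000000 counts of the scaled library total, and errors are SD over libraries unless SE is named. Library totals were 4007533 to 11970907 in Dnmt1cKO and 543591 to 7577706 in Control, and the library labelled Control 4 was the smallest. The targeted gene, Dnmt1, had 22.8, 50.6 and 97.0 CPM (lowest, median, highest) in Dnmt1cKO, against 164, 114, 237 and 2.84 CPM in Controls 1 to 4. The library labelled Control 4 held 1 count of Dnmt1, with an exact Poisson 95% interval of 0.0720 to 15.8 CPM, which goes against its label, since all 8 Dnmt1cKO libraries held more. Dnmt1 was not called as different (log2 fold change -1.29 ± 0.63 SE, edgeR quasi-likelihood test, Benjamini-Hochberg adjusted p = 0.284), nor without the library labelled Control 4 (-1.60, adjusted p = 0.0815). The summed level of 18 epithelial markers was 6995 to 12540 CPM in Dnmt1cKO and 4069 to 37850 CPM in Control, and that of 24 stromal markers was 582 to 7641 CPM in Dnmt1cKO and 2143 to 13530 CPM in Control. Control 3 had the lowest epithelial and the highest stromal sum of all libraries. Of the stromal markers, 23 were tested and 0 called by edgeR, with 8 lower in Dnmt1cKO at an unadjusted p under 0.05, and DESeq2 called 3 lower and limma-voom 1. The library labelled Control 4 stands last in each list of Controls 1 to 4, and the differences in Rhox5, Rhox6 and Rhox8 are given with and without it and Control 3.

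The 5 genes differ in how far a read can tell them from their relatives. The lines show 75 bases of the homeobox in the coding sequence of each gene, 5′ to 3′, from GENCODE M21 transcripts on GRCm38. Capitals mark bases that differ from Rhox6 at the same place, and each stretch lies in a single exon.
Rhox6: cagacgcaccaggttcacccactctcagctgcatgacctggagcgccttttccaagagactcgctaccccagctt
Rhox9: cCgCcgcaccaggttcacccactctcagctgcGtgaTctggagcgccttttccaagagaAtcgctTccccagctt
Rhox8: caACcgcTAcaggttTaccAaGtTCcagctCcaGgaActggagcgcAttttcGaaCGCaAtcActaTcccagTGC
Rhox2a: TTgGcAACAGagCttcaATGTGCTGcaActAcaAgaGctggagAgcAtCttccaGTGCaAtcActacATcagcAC
Rhox5: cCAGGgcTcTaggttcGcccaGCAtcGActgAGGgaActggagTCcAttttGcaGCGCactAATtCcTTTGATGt
Rhox9 differed from Rhox6 at 6 of the 75 bases (92.0% identity) and Rhox8 at 23 (69.3% identity), while Rhox2a and Rhox5 were 54.7% and 53.3% identical to Rhox6. The stretches lie at chrX:37827742-37827816 (plus strand) for Rhox6, chrX:37900961-37901035 (minus strand) for Rhox9, chrX:37877859-37877933 (minus strand) for Rhox8, chrX:37245577-37245651 (plus strand) for Rhox2a and chrX:37805383-37805457 (plus strand) for Rhox5. Of the 50-base windows along each longest transcript, 100% occurred in no other gene for Rhox5, 95.3% for Rhox9, 90.1% for Rhox8, 83.5% for Rhox6 and 6.6% for Rhox2a. The longest run shared letter for letter by Rhox6 and Rhox9 was 161 bases. Rhox8 shared windows with 108 genes, 0 of them Rhox genes, all within bases 384 to 677 of its transcript and inside its coding part, and at 100 bases every window of Rhox8 occurred in Rhox8 alone. For Rhox2a the share of such windows was 29.7% at 100 bases. Reads that matched more than 1 gene were shared out by the authors' software, so the level of Rhox2a apart from the other Rhox2 copies is uncertain, and the levels of Rhox6 and Rhox9 less so.

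Rhox5, Rhox6, Rhox2a and Rhox9 were higher in Dnmt1cKO than in Control libraries, and Rhox8 was lower. Of the 5 genes, 2 were called higher (Rhox2a and Rhox6), 1 was called lower (Rhox8), and Rhox5 and Rhox9 were not called, where a call is an edgeR adjusted p under 0.05. Over all 12761 genes tested, 1.03% were called higher and 1.55% lower (132 and 198 genes), a split that became 170 and 726 with the RLE size factors and 113 and 47 with library totals alone. Values of single genes did not overlap between the groups in 2.59% of genes on the higher side and in 0.486% on the lower side. The genes were chosen for this comparison, so nothing is read from their count, which also moved with the test: DESeq2 called all 5, and limma-voom with quality weights called Rhox5 and Rhox8 alone. In libraries of whole tissue, fewer cells that express a gene and less RNA per cell cannot be told apart. DNA methylation was not analysed here.

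**Figure D1:**
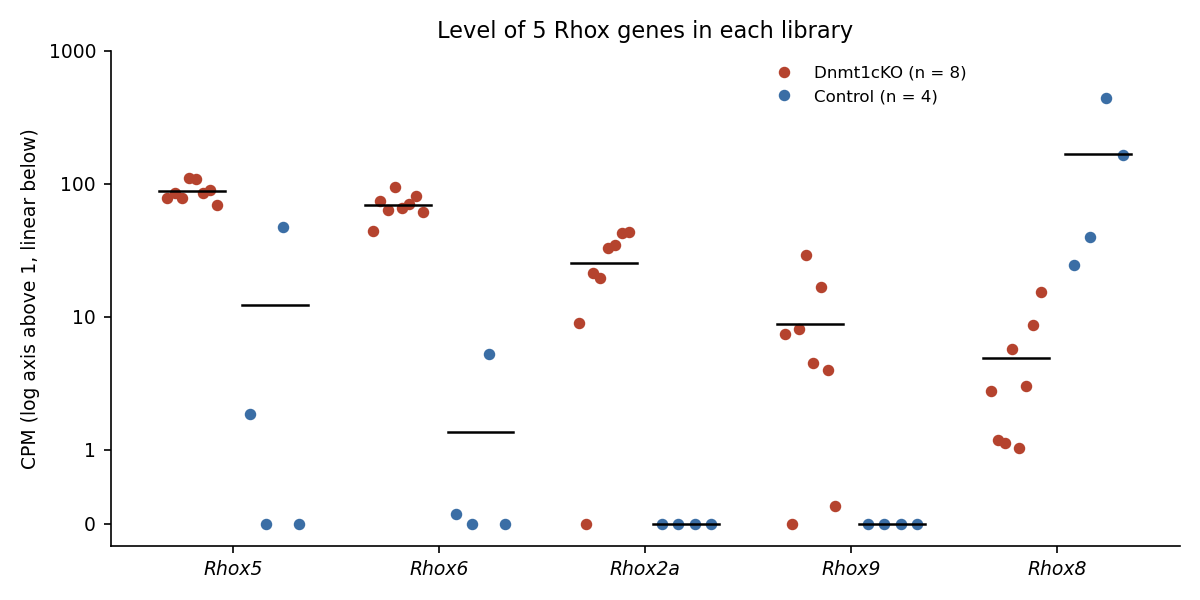
CPM of the 5 genes in each of 8 Dnmt1cKO libraries (red, left) and 4 Control libraries (blue, right), on an axis that is logarithmic above 1 and linear below, with a black line at the group mean. Rhox5 and Rhox6 form tight groups in Dnmt1cKO above all Controls, Rhox2a and Rhox9 spread widely in Dnmt1cKO and are at 0 in Control, and Rhox8 lies below all Controls.

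Rhox5 was the most abundant of the 5 in Dnmt1cKO. It had 78.4, 85.3, 78.0, 110.5, 107.9, 84.4, 90.4 and 69.6 CPM in Dnmt1cKO 1 to 8, against 1.84, 0, 47.5 and 0 CPM in Controls 1 to 4. Every Dnmt1cKO library was above every Control library, and among Controls only Control 3 was far above 0. The means were 88.1 ± 14.4 CPM in Dnmt1cKO (n = 8) and 12.3 ± 23.5 CPM in Control (n = 4), a 7.14-fold difference in means with a fitted log2 fold change of 2.81 ± 0.95 (SE). The ratio was 143-fold without Control 3 and 5.36-fold without the library labelled Control 4. Control 3 supplied 63 of the 78 counts of Rhox5 in Control and Control 1 the other 15. At the Dnmt1cKO mean, Controls 1 to 4 would have held 716, 261, 117 and 31.0 counts, so the 2 Controls at 0 were deep enough to show that level.

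Rhox6 showed the same order of the groups. It had 44.3, 73.6, 63.8, 94.3, 65.3, 70.0, 80.3 and 61.4 CPM in Dnmt1cKO 1 to 8, against 0.123, 0, 5.28 and 0 CPM in Controls 1 to 4. The groups did not overlap, and Control 3 was again the highest Control. The means were 69.2 ± 14.6 CPM in Dnmt1cKO and 1.35 ± 2.62 CPM in Control, a 51.2-fold difference that rests on 8 counts in Control, 7 of them in Control 3. The fitted log2 fold change was 5.79 ± 1.12 (SE). Without Control 3, a single count of Rhox6 remained in Control, and the fitted log2 fold change was 9.47; without the library labelled Control 4 the ratio of means was 38.4-fold. Rhox5 and Rhox6 were also the least variable of the 5 among Dnmt1cKO libraries, with coefficients of variation of 16.4% and 21.2%.

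Rhox2a had 8.94, 0, 21.1, 19.6, 33.1, 34.8, 42.8 and 43.2 CPM in Dnmt1cKO 1 to 8, against 0 CPM in each of the 4 Controls. Dnmt1cKO 2, one of the shallowest Dnmt1cKO libraries, was listed at 0, so the groups overlap at that value. In that library 3 counts would stand at 0.673 CPM, below the Rhox2a level of every other Dnmt1cKO library. The mean was 25.4 ± 15.7 CPM in Dnmt1cKO, at least 108-fold higher than the level that 3 counts over the 4 Controls would give (0.235 CPM), and the fitted log2 fold change was 10.55 ± 2.24 (SE). The floor and the ratio bounds cover counting error only. The coefficient of variation of Rhox2a among Dnmt1cKO libraries was 61.9%.

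The sum of the Rhox2 copies, Rhox2a to Rhox2h, was steadier than Rhox2a. It was 37.4, 48.5, 51.4, 68.3, 79.2, 71.3, 81.2 and 83.9 CPM in Dnmt1cKO 1 to 8, against 0, 0.337, 0 and 0 CPM in Controls 1 to 4. All 8 Dnmt1cKO libraries were above all Controls, including Dnmt1cKO 2, in which Rhox2a was listed at 0. The mean was 65.2 ± 17.3 CPM in Dnmt1cKO (coefficient of variation 26.5%), and the ratio to the single Control count was 832 with a 95% counting interval of 149 to 32880. The share of Rhox2a in the sum was 0% to 52.7% over the Dnmt1cKO libraries, with a median of 41.5%, and that of Rhox2f was 6.5% to 68.3%. Which copy a read was credited to thus changed between libraries more than the family's sum did, and whether reads were credited to the right copy was not tested.

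**Figure D2:**
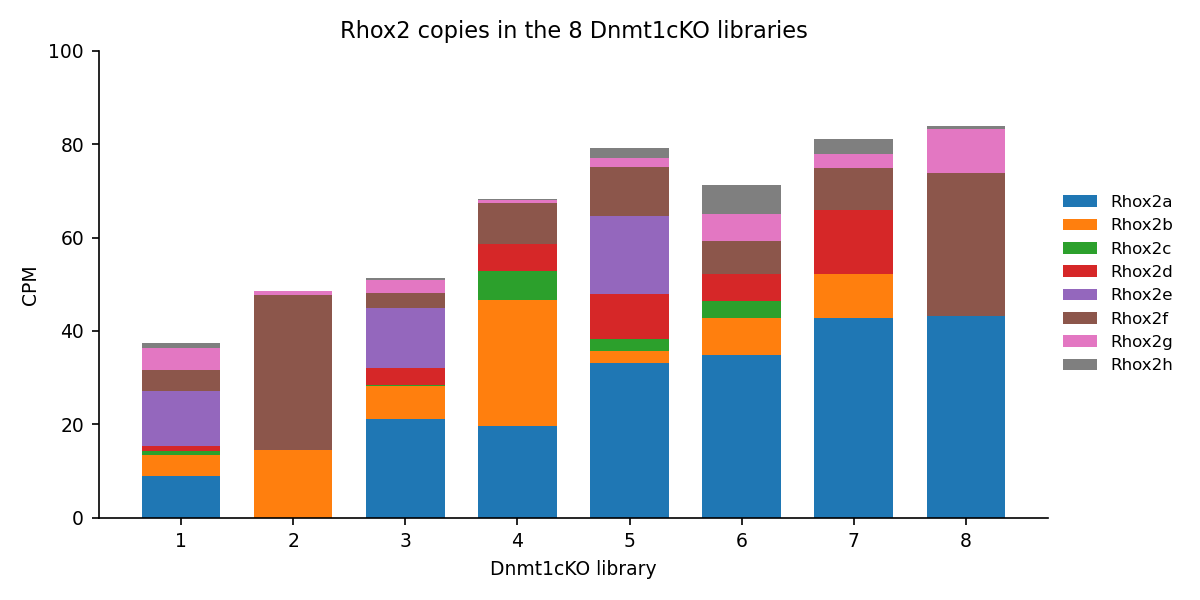
Stacked bars of the CPM of Rhox2a to Rhox2h in each of the 8 Dnmt1cKO libraries. The stacks reach 37.4 to 83.9 CPM, while the share of Rhox2a at their base is 0% in Dnmt1cKO 2 and up to 52.7% elsewhere.

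Rhox9, the near relative of Rhox6, was lower and less even. It had 7.39, 0, 8.07, 29.1, 4.48, 16.8, 3.94 and 0.240 CPM in Dnmt1cKO 1 to 8, against 0 CPM in each of the 4 Controls. Dnmt1cKO 2 and 8, the shallowest libraries of the group, were at or near 0, and the groups overlap through Dnmt1cKO 2. In these libraries 3 counts would stand at 0.673 and 0.856 CPM, below the Rhox9 level of every other Dnmt1cKO library. The mean was 8.75 ± 9.79 CPM in Dnmt1cKO, at least 37.3-fold above the floor of 3 counts over the Controls, and the fitted log2 fold change was 9.01 ± 2.63 (SE). At that mean, Controls 1 to 4 would have held 71.2, 26.0, 11.6 and 3.08 counts, the last of which is close to the floor of 3 counts. The ratio of Rhox9 to Rhox6 differed between libraries: Dnmt1cKO 4 had 29.1 CPM of Rhox9 beside 94.3 CPM of Rhox6, and Dnmt1cKO 2 had 0 CPM beside 73.6 CPM.

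Rhox8 went the other way. It had 2.78, 1.19, 1.12, 5.76, 1.03, 3.02, 8.65 and 15.4 CPM in Dnmt1cKO 1 to 8, against 24.6, 39.5, 442 and 165 CPM in Controls 1 to 4. Every Dnmt1cKO library was below every Control library, with Dnmt1cKO 8 and Control 1 the closest pair. The Controls themselves spread widely: Control 3 was far above Controls 1 and 2, and their exact Poisson 95% intervals, 407 to 479, 21.3 to 28.3 and 32.7 to 47.3 CPM, did not meet. The means were 4.87 ± 5.02 CPM in Dnmt1cKO and 168 ± 193 CPM in Control, which is 34.5-fold lower in Dnmt1cKO, and the fitted log2 fold change was -5.12 ± 0.81 (SE).

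The size of the Rhox8 difference depended on which Controls were kept. The Dnmt1cKO mean was 15.7-fold lower without Control 3, 34.7-fold lower without the library labelled Control 4, and 6.58-fold lower when Controls 1 and 2 alone were kept. With those 2 Controls the fitted log2 fold change was -2.66. Without Dnmt1cKO 8 the difference was 49.9-fold. Rhox8 was lower in Dnmt1cKO under each of the 21 alternative settings and libraries left out, with fitted log2 fold changes of -5.60 to -2.66.

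The sample descriptions carry a numbered code b of unstated meaning, and codes 4, 5, 6 and 7 occur in both groups. Within codes 4, 5, 6 and 7, Rhox8 differed by -3.09, -2.42, -7.20 and -4.10 on the log2(CPM + 2) scale, Dnmt1cKO minus Control. Rhox5 differed by 4.38, 5.81, 1.15 and 5.38, and Rhox6 by 4.96, 5.59, 3.21 and 5.17. Rhox2a differed by 3.53, 3.43, 4.13 and 4.40, and Rhox9 by 2.33, 3.96, 1.70 and 1.66. Each gene thus had 1 direction in all 4 codes, but the group values settled this in advance. For Rhox5, Rhox6 and Rhox8 the groups did not overlap, so any matching of libraries would have given the same direction. Rhox2a and Rhox9 had no count in any Control, so they could not have been lower in Dnmt1cKO within a code. The shared directions are therefore a description only. Rhox5 was least different and Rhox8 most different within code 6, the code of Control 3.

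**Figure D3:**
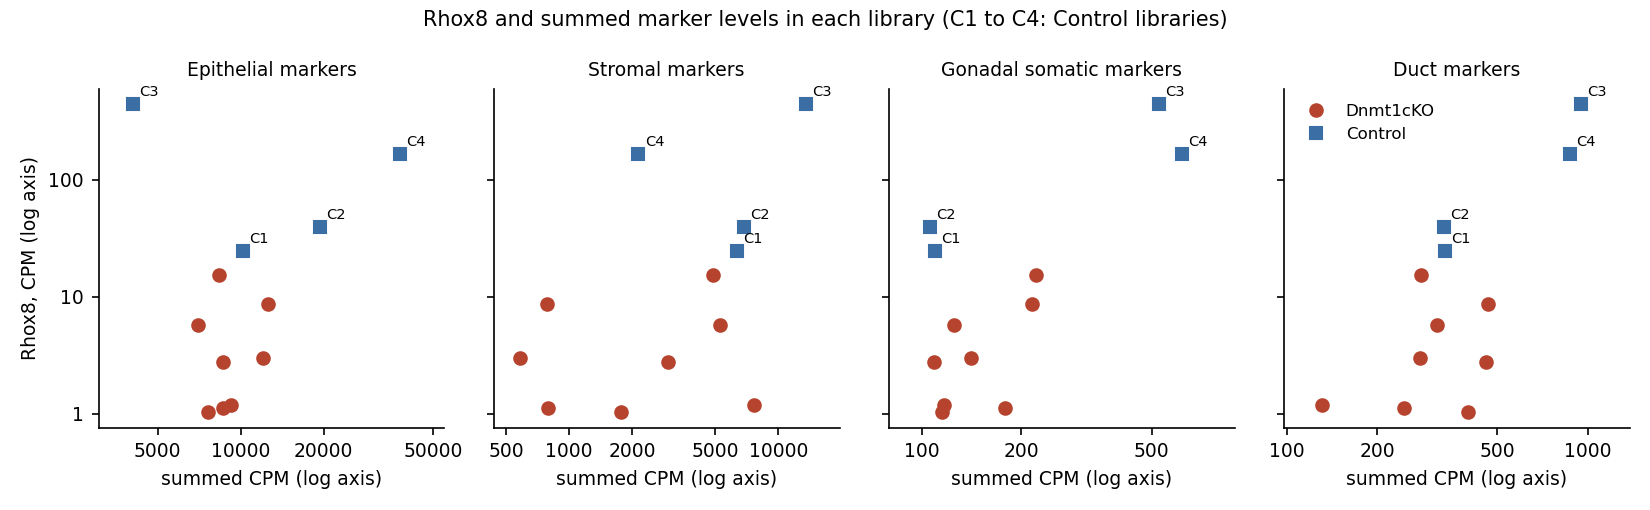
Rhox8 level (CPM, log axis) against the summed level (CPM, log axis) of epithelial, stromal, gonadal somatic and duct markers in 8 Dnmt1cKO libraries (red circles) and 4 Control libraries (blue squares, C1 to C4). C3 and the library labelled Control 4 (C4), the highest in Rhox8, stand apart from all other libraries in the gonadal and duct sums. C1 lies at the low end of the Dnmt1cKO range of gonadal sums and C2 just below it.

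Rhox8 is known from gonadal somatic cells, so the markers of such cells were summed in each library. The sum of 15 gonadal somatic markers was 109 to 222 CPM in Dnmt1cKO, against 109, 106, 525 and 617 CPM in Controls 1 to 4. Of these markers, 8 were at 0 in every library: Nr5a1, Amh, Foxl2, Hsd3b1, Cyp11a1, Cyp17a1, Fshr and Cyp19a1, which include the defining genes of Sertoli, granulosa and steroid-making cells. The high sums of Control 3 and of the library labelled Control 4 came from Sox9 at 410 and 276 CPM, which epithelia also express, from Inha at 341 CPM in the library labelled Control 4, and from Wt1 at 115 CPM in Control 3. The sum of 12 markers of the Wolffian, Müllerian and nephric ducts was 131 to 467 CPM in Dnmt1cKO, against 336, 332, 951 and 872 CPM in Controls 1 to 4. Gata3 (579 CPM) and Hoxa10 (287 CPM) made up nearly all of it in the library labelled Control 4, and in Control 3 Gata3 reached 333 CPM. Control 3 was also high in Cdh16 (145 CPM), Wnt9b (79.2 CPM), Wnt7a (70.9 CPM), Emx2 (95.8 CPM) and Ret (210 CPM), while the library labelled Control 4 had 0 CPM of Wnt9b, Wnt7a and Emx2. The defining duct gene Pax2 was at 0 in all 4 Controls. In Controls 1 and 2 neither the gonadal nor the duct sum exceeded the highest Dnmt1cKO sum. Their Wt1 stood at 28.77 and 22.25 CPM, above every Dnmt1cKO library except Dnmt1cKO 8 (range 0.4 to 37.08 CPM in Dnmt1cKO). Their stromal sums were 6368 and 6843 CPM, above every Dnmt1cKO library except Dnmt1cKO 2. The Dnmt1cKO sums ran from 582 to 7641 CPM with a median of 2377 CPM. The part of gonadal, duct or stromal cells in the Rhox8 level of any library was not tested.

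Per kilobase of the longest GENCODE transcript, the order of levels in Dnmt1cKO was Rhox5 at 117 ± 19.2 CPM per kb, Rhox6 at 68.5 ± 14.5, Rhox2a at 32.0 ± 19.8, Rhox8 at 4.05 ± 4.17 and Rhox9 at 3.61 ± 4.04 (n = 8). Rhox8 and Rhox9 did not differ beyond their spread, and with its shorter transcript of 882 bases Rhox9 came to 9.93 ± 11.1 CPM per kb and stood above Rhox8. In Control, Rhox8 came first at 139 ± 161 CPM per kb, before Rhox5 at 16.4 ± 31.1 and Rhox6 at 1.34 ± 2.59 (n = 4), and neighbours in that order overlapped within their SD. The Rhox2 copies together had 82.0 ± 21.7 CPM per kb in Dnmt1cKO, between Rhox5 and Rhox6.

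The make-up of the family's RNA differed between the groups. Rhox8 made up 0.327% to 5.93% of all Rhox counts in Dnmt1cKO, against 75.2%, 99.2%, 89.3% and 100% in Controls 1 to 4. The sum of all Rhox symbols other than Rhox8 was 309 ± 53.8 CPM in Dnmt1cKO and 15.3 ± 25.3 CPM in Control, a 20.2-fold difference with no overlap, and 110-fold without Control 3. With Rhox8 included, the sum was 314 ± 53.2 CPM in Dnmt1cKO and 183 ± 217 CPM in Control, a 1.71-fold difference in which the groups overlapped through Control 3. Without Control 3 they did not overlap, and the difference was 3.96-fold. Of the 31 symbols, 22, 12, 22, 19, 20, 19, 21 and 13 had a count in Dnmt1cKO 1 to 8, against 5, 2, 3 and 1 in Controls 1 to 4. The number was lowest in the shallowest libraries of either group.

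Of the 26 Rhox symbols outside the 5 chosen genes, 17 had counts in Dnmt1cKO and none in Control, 3 had a count in Control (Rhox13, Rhox2f and Rhox4b), and 6 had no count. The filter on low counts was passed by 12, and 6 of these were called higher in Dnmt1cKO by edgeR: Rhox2b, Rhox2f, Rhox4a, Rhox4d, Rhox4e and Rhox4g, with adjusted p of 0.0197 to 0.0450. Of the 12, 9 were at 0 in every Control and passed the filter through their Dnmt1cKO counts alone, so their direction was fixed by the filter. Of the 3 with a Control count, Rhox2f had a fitted log2 fold change of 6.86 ± 1.81 (SE), Rhox13 of 5.58 ± 2.23 and Rhox4b of 2.23 ± 1.54, and only Rhox2f was called (edgeR adjusted p = 0.0327, against 0.176 and 0.487). Each of the 3 had counts in 1 Control library alone. They too passed the filter through Dnmt1cKO libraries, so nothing is read from their direction. The remaining 14 were too low to test.

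The Rhox4 copies are the family's other large group. Rhox4e, the highest of the 26 by mean, had 0.752, 14.0 and 34.6 CPM (lowest, median, highest) in Dnmt1cKO, against 0 CPM in all Controls. Its mean was at least 63.8-fold above the 3-count floor (fitted log2 fold change 9.78 ± 2.35 SE, edgeR adjusted p = 0.0197). Rhox4a averaged 13.7 ± 9.97 CPM, Rhox4g 13.5 ± 20.9 CPM and Rhox4d 10.8 ± 7.96 CPM in Dnmt1cKO, at least 58.5-fold, 57.3-fold and 46.1-fold above the floor, with all 3 at 0 in Control. Rhox2f averaged 13.4 ± 11.7 CPM in Dnmt1cKO against 1 count in Control, a ratio of 171 with a 95% counting interval of 30.6 to 6736. Rhox2b averaged 9.16 ± 8.49 CPM in Dnmt1cKO, at least 39.0-fold above the floor.

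Summed, the Rhox4 copies had 77.6, 127, 44.6, 92.9, 49.0, 77.3, 68.2 and 29.4 CPM in Dnmt1cKO 1 to 8, against 6.02, 0, 0 and 0 CPM in Controls 1 to 4. The groups did not overlap, and the 49 Control counts were all of Rhox4b in Control 1. The means were 70.8 ± 30.8 CPM in Dnmt1cKO and 1.51 ± 3.01 CPM in Control, 47.0-fold apart, or at least 109.5-fold above the floor without Control 1 (fitted log2 fold change 5.09 ± 1.06 SE, edgeR adjusted p = 0.00621 with copies of Rhox2, Rhox3 and Rhox4 each counted as 1 unit). In that fit 0.996% of 12752 units were called higher and 1.54% lower. The Rhox4 sum had counts in 1 Control library alone and passed the filter through Dnmt1cKO libraries. Nothing is therefore read from its direction. The calls of single copies depended on the libraries kept. The fit with copies summed is given for all libraries only, so its call cannot be compared in this respect. All 6 were lost without the library labelled Control 4, with adjusted p of 0.0690 to 0.12, while 14 of the 26 symbols passed an unadjusted p under 0.05 there (edgeR). Leaving out Dnmt1cKO 1, 4, 5 or 7 left 3 calls each time, Rhox4a, Rhox4e and Rhox4g. Rhox4a, Rhox4e and Rhox4g kept their call in every other fit that left out 1 library.

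Of the 31 symbols, 19 had counts in Dnmt1cKO and none in Control, 6 had a count in Control, and 6 were at 0 in every library. The silent 6 were Rhox12 and the Rhox3 copies Rhox3a, Rhox3c, Rhox3f, Rhox3g and Rhox3h, while Rhox3e had counts in a single Dnmt1cKO library. A gene with no count was not detectable at this depth, which does not show that it is absent. Dnmt1cKO libraries together held 69328691 counts and Control libraries 12650004. The share of all genes with counts in Dnmt1cKO alone is not given, so nothing is read from the 19 or the earlier 17.

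**Figure D4:**
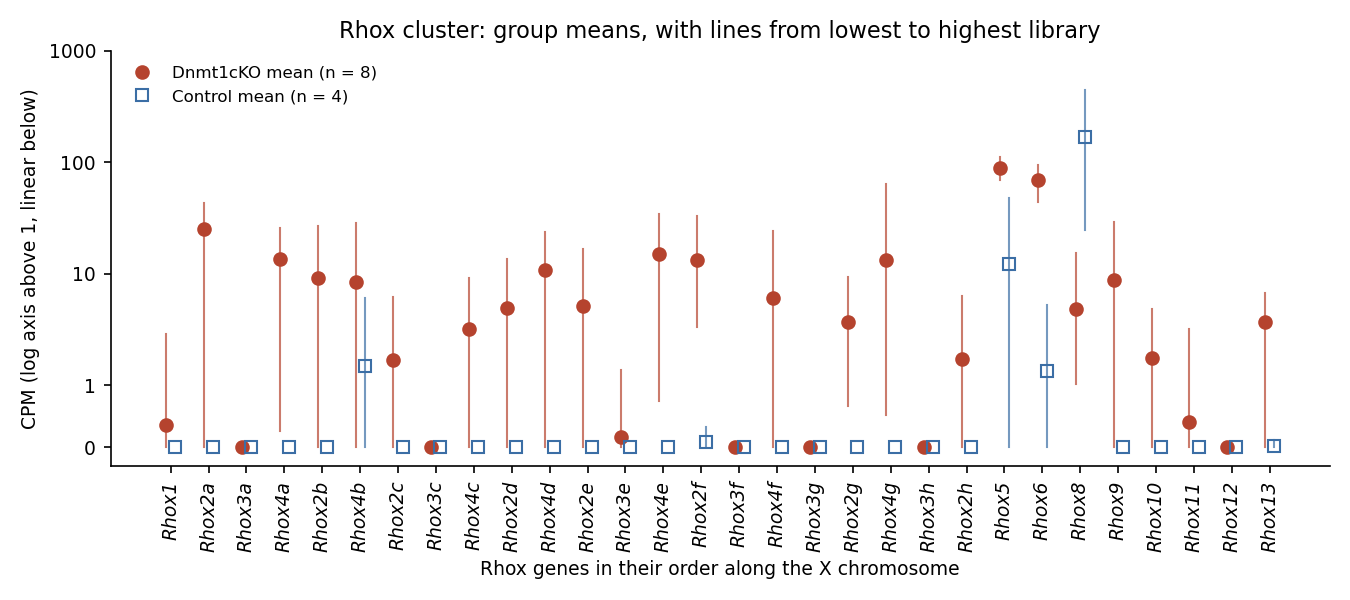
Mean CPM of 30 Rhox symbols in their order along the X chromosome in Dnmt1cKO (red circles, n = 8) and Control (blue open squares, n = 4), with lines from the lowest to the highest library, on an axis that is logarithmic above 1 and linear below. Dnmt1cKO means are above Control means along the cluster wherever counts were found, with the exception of Rhox8, which lies between Rhox6 and Rhox9.

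The cluster spans chrX:37213804-38129966 (916.2 kb), with 30 of the symbols placed by RefSeq. Rhox8 (chrX:37874778-37878944, minus strand) lies between Rhox6 (chrX:37826910-37829857, plus strand) and Rhox9 (chrX:37899097-37901770, minus strand), so the gene lower in Dnmt1cKO is flanked by genes higher in it. Rhox5 lies at chrX:37804842-37808876 and Rhox2a at chrX:37244976-37249686, both on the plus strand, and these 5 spans are those of GENCODE M21. Outside the cluster, the nearest 20 measured genes, 10 on each side, included 13 that were tested. Of these 1 was called, Gm9, which averaged 17.5 CPM in Dnmt1cKO and 0 CPM in Control (fitted log2 fold change 10.003 ± 2.103 SE, edgeR adjusted p = 0.0076), and 4 passed an unadjusted p under 0.05. Gm9 was at 0 in every Control and passed the filter through its Dnmt1cKO counts alone, so its direction was fixed by the filter. The fitted log2 fold changes of the 13 ran from -1.71 to that of Gm9, with a median of 0.42. Over 441 other X-linked genes tested the median was 0.35, with 13 called higher and 10 lower, beside 0.22 over all genes tested.

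DNA methylation in mouse falls on cytosines of CpG pairs, so the CpG content of the promoters was counted. The RefSeq promoter table for GRCm38.p6 holds 250 bases before and 50 after the start of 25 of the 31 symbols, among them Rhox2a (chrX:37244742-37245041) and Rhox5 (chrX:37754358-37754657), both on the plus strand. They are printed 5′ to 3′ with CpG pairs in capitals.
Rhox2a: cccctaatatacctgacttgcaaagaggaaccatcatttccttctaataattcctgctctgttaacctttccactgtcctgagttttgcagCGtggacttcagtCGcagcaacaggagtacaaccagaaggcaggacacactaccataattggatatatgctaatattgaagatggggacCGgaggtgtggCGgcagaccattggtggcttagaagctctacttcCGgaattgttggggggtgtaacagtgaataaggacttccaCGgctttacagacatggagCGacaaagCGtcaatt
Rhox5: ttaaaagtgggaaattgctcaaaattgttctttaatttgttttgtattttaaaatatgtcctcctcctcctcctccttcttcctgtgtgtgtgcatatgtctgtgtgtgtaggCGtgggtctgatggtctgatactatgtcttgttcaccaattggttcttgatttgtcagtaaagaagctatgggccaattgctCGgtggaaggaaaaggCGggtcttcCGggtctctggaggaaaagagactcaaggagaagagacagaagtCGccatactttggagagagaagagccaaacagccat
Rhox2a has 8 CpG pairs and Rhox5 has 5. The Rhox5 window starts from the RefSeq start, 50.2 kb upstream of the GENCODE start, and the start used in this tissue was not measured. Set against the Rhox2a window without gaps, Rhox2b matched Rhox2a at 278 of 278 bases, Rhox2c and Rhox2e each at 299 of 300, Rhox2g at 94.7%, Rhox2h at 94.3% and Rhox2d at 69.8%.

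The median CpG number of the 25 Rhox promoters was 7, equal to the median of all 32851 promoters of the table. Among Rhox genes it differed with detection. The 6 symbols at 0 in every library had 2 to 4 CpG pairs (median 3), the 4 promoters of symbols with counts in 1 to 3 Dnmt1cKO libraries had 0 to 8 (median 4.5), and the 15 of symbols with counts in 4 or more had 5 to 12 (median 9). The classes were formed after the values were seen and carry no test. The ranges of the first and last class did not meet, and 5 symbols of the last class have no promoter in the table. Near-identical copies share promoter sequence and reads, so these genes are not independent of each other. Another 6 short motifs were searched on both strands. The E-box CACGTG occurred in 16% of Rhox promoters and 7.2% of all promoters, the ETS-type CCGGAA in 32.0% and 14.9%, the GATA-type GATAA in 36.0% and 25.4%, GGGCGG in 28.0% and 35.7%, TATAAA in 4.0% and 13.6%, and the E2F6-type GGCGGGA in 0% and 11.3%, where GGGCGG and GGCGGGA can overlap. The Rhox promoters with CACGTG were all of Rhox4 copies, and those with CCGGAA were of Rhox2 copies and Rhox5. A match says only that the letters are there, and no match only that they are not in this window.

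Genes that are known as repressors of Rhox or other germline genes were taken as a list. This list held DNA methyltransferases, the G9a complex, polycomb subunits, E2F6 partners and linker histones. Of 25 tested, 0 were called by edgeR, beside 2.59% of all genes tested, so nothing is read from the count. Without adjustment 4 passed at 0.05, of which 3 were higher. DESeq2 called 2 members higher and 2 lower, beside 525 and 1048 over all genes. With limma-voom 0 were called in either direction, beside 8 and 31 over all genes. Of 16 tested genes listed as possible activators of Rhox genes, 1 was called, Gata3, a factor of the GATA family that averaged 109 ± 32.9 CPM in Dnmt1cKO and 320 ± 187 CPM in Control (log2 fold change -1.55 ± 0.44 SE, edgeR adjusted p = 0.0459). The Gata3 call was lost without Control 3 (edgeR adjusted p = 0.0561), without the library labelled Control 4 (0.163) and with limma-voom (0.452). It was also lost without any 1 of the Dnmt1cKO libraries (edgeR adjusted p of 0.0602 to 0.0983). The same held with library totals alone (0.192), without the filter (0.0944) and with the block by code b (0.179). The call was kept with RLE size factors (edgeR adjusted p = 0.0132), with DESeq2 (0.00246) and without Control 1 (0.0191) or Control 2 (0.0312). Of the whole list DESeq2 called 2 lower and limma-voom 0. Gata4, which is known to regulate genes of Sertoli cells, had 3 counts in 1 Dnmt1cKO library and none in Control. Unc5c, a netrin receptor gene known as a target of Rhox5 in testis, averaged 27.4 ± 32.3 CPM in Dnmt1cKO and 35.8 ± 34.4 CPM in Control and was not called (adjusted p = 0.876, edgeR), and Ins2, another such target, was at 0 throughout. Of 15 other reproductive homeobox genes, Duxbl1 alone was tested, and it was not called. DESeq2 called 0 of these genes and limma-voom 0, and 0 passed an unadjusted p under 0.05 in DESeq2.

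Markers of the tissues in which Rhox genes are known to be active were summed beside them. The sum of 12 germ cell markers was 248 to 344 CPM in Dnmt1cKO and 8.53 to 132 CPM in Control, with Dazl and Ddx4, RNA-binding proteins of germ cells, called higher. Dazl averaged 192 ± 39.2 CPM in Dnmt1cKO and 2.41 ± 4.43 CPM in Control (edgeR adjusted p = 4.04e-05), and Ddx4 averaged 25.2 ± 14.2 CPM in Dnmt1cKO and 0 CPM in Control (edgeR adjusted p = 0.00805). Ddx4 was at 0 in every Control and passed the filter through its Dnmt1cKO counts alone, so its direction was fixed by the filter. With so low a Control level, Dazl also passed the filter through Dnmt1cKO libraries, so nothing is read from its direction. Without Control 3 and the library labelled Control 4 the adjusted p was 4.93e-08 for Dazl and 0.0995 for Ddx4. Pou5f1, Dppa3, Prdm14 and Nanos2, which define primordial and male germ cells, were at 0 throughout. The sum of 12 trophoblast markers was 62.8 to 314 CPM in Dnmt1cKO and 139 to 609 CPM in Control. Of those, 6 were at 0 in every library: Cdx2, Eomes, Tpbpa, Prl3d1, Prl3b1 and Plac1. Gcm1, a factor of syncytiotrophoblast, was the only one called by edgeR, at 1.5 ± 1.12 CPM in Dnmt1cKO and 88.9 ± 147 CPM in Control (log2 fold change -5.90 ± 0.99 SE, edgeR adjusted p = 0.000813), and that call was lost without Control 3 (adjusted p = 0.129). DESeq2 called 2 of the trophoblast markers lower and limma-voom 1. The sum of 4 sex-linked genes was 177 to 412 CPM in Dnmt1cKO and 188 to 392 CPM in Control, and none of the 4 was called by edgeR, at an adjusted or unadjusted p under 0.05, while DESeq2 called 0 and limma-voom 0.

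For Rhox8 and Rhox5 the 4 tested genes with the most similar pattern were taken by Pearson's r of log2(CPM + 2) over all 12 libraries, as a description in which the difference between the groups weighs most. Nearest to Rhox8 were Bcmo1, which encodes an enzyme that cleaves beta-carotene (r = 0.979), Fam101b (0.967), Ndufs3, a subunit of respiratory complex I (0.959), and Rbm39, a splicing factor (0.959). Bcmo1 averaged 7.12 CPM in Dnmt1cKO and 210 CPM in Control and was highest in Control 3 and in the library labelled Control 4, at 338 and 427 CPM. Nearest to Rhox5 were Trap1a, which encodes a tumour rejection antigen (r = 0.985), A430078G23Rik (0.960), Gm11127 (0.950) and Rhox6 (0.947). Trap1a averaged 175 CPM in Dnmt1cKO and 20.8 CPM in Control, with 83.3 CPM in Control 3 and 0 in the other Controls. A430078G23Rik and Gm11127 were likewise highest in Control 3 among Controls, at 72.7 and 427 CPM.

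**Figure D5:**
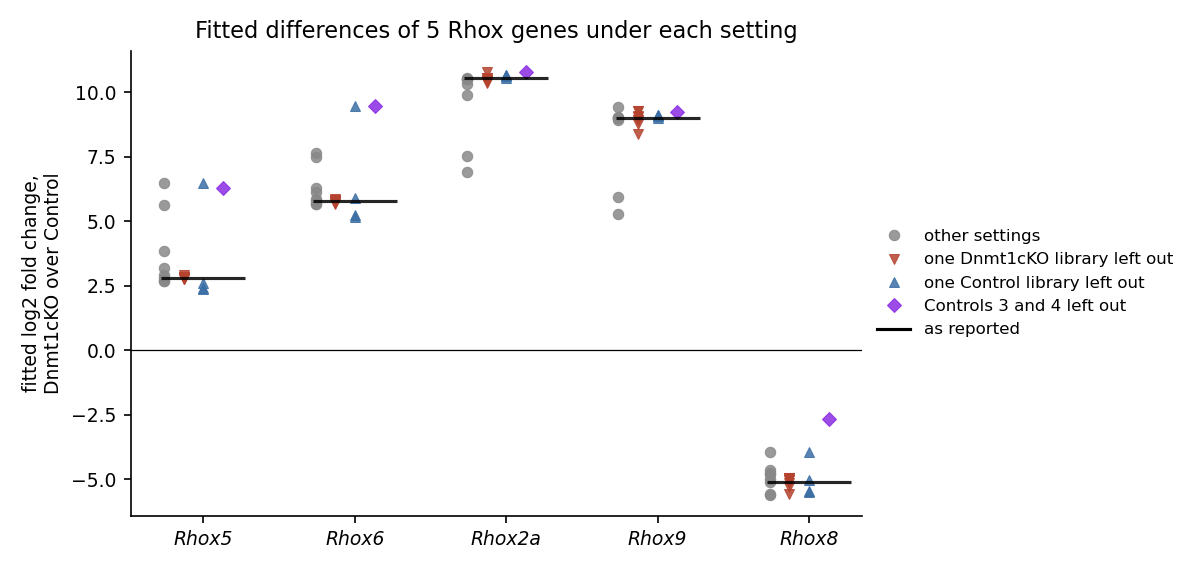
Fitted log2 fold change (Dnmt1cKO over Control) of the 5 genes as reported (black line), with 1 Dnmt1cKO or 1 Control library left out (triangles), with Control 3 and the library labelled Control 4 left out together (diamonds) and under the other settings (grey circles). All values of Rhox5, Rhox6, Rhox2a and Rhox9 are above 0 and all values of Rhox8 below, and the highest values of Rhox6 are those without Control 3.

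Over the 21 alternatives the fitted log2 fold change of Rhox5 ran from 2.37 to 6.49, that of Rhox6 from 5.16 to 9.47, that of Rhox2a from 6.89 to 10.79 and that of Rhox9 from 5.28 to 9.42. The choice of the genes fixes these directions in part, so they are given as ranges. The fitted values of Rhox2a and Rhox9, at 0 in every Control, depend on the count that the software adds to zeros.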

How the data were processed

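RNA-seq of urogenital sinus epithelium was compared between 8 Dnmt1cKO and 4 Control libraries, grouped by their genotype labels. The deposited values are RSEM expected counts for 20308 gene symbols, made by the authors with RSEM 1.2.3, Bowtie 0.12.9 and bcl2fastq 2.17.1.14 on mm10, per the submitters' processing notes; neither mapping settings nor annotation nor the use of strand is stated. A fractional value occurred in 38.5% of genes. Another 8 unnamed columns of the table were not used, and 0 of them were taken as samples.

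Expected counts were rounded and tested with edgeR 4.0.16 in R 4.3.3 (quasi-likelihood, TMM, robust, filterByExpr at 10 counts and a total of 15), over 12761 genes, with Benjamini-Hochberg adjustment and a threshold of 0.05. CPM are expected counts per 1000000 counts of the TMM-scaled library total, and per-library log2 differences used a pseudocount of 2. SE is the fitted log2 fold change over the square root of F. Against a group at 0, ratios use 3 counts over the group as a floor. The procedure was tested on simulated data.

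The 5 genes and every gene list were chosen with earlier results of these data known. By a rule written down for the text, it names these 5, the other Rhox genes that were called or were among the 4 highest, Dnmt1, called neighbours, called list members with Gata4, Unc5c and Ins2, and the 4 genes most like Rhox8 and Rhox5; Duxbl1 and single marker genes were named after their values were seen. Alternatives used DESeq2 1.42.0, limma 3.58.1, other scalings, filters, libraries left out, a stromal covariate and a block by the code b. Transcripts were taken from GENCODE M21, promoters from RefSeq for GRCm38.p6, in which 25 of the 31 Rhox symbols matched; a promoter is given for neither Rhox6, Rhox8 nor Rhox9. A further gene that the rule names is not reported here.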

Additional observations from a re-analysis of the deposited data

Results flagged for a closer look

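Among the 17 Rhox genes that passed the filter on low counts, the Rhox2 and Rhox4 sums and Dnmt1, a library of a group was singled out where its gap to the nearest library was large for the range of the group (Dixon's criterion), which chance meets in about 1 of 20 groups. No explanation was tested. Control 3 stood apart in Rhox5, at 47.5 CPM against 0 to 1.84 CPM in the other Controls, and in Rhox6, at 5.28 CPM against 0 to 0.123 CPM. Control 1 stood apart in Rhox4b and with it in the Rhox4 sum, at 6.02 CPM (49 counts) against 0 in the other Controls, and in Rhox13, at 0.123 CPM (1 count). Control 2 stood apart in Rhox2f and in the Rhox2 sum, at 0.337 CPM (1 count). Where 3 Controls were at 0, a single count was enough to meet the criterion. Among Dnmt1cKO libraries, Dnmt1cKO 2 stood apart in Rhox4g, at 64.0 CPM against 0.516 to 13.9 CPM in the others, and in Rhox4f, at 24.2 CPM against 0 to 8.37 CPM. The same library was listed at 0 for Rhox2a, Rhox9 and other copies, and it held counts of 12 Rhox symbols.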

How the results depend on the processing

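Rhox2f, Rhox13 and Rhox4b, the tested Rhox genes outside the chosen 5 with a count in Control, had fitted log2 fold changes of 4.78 to 9.69, 3.73 to 7.75 and 0.42 to 8.95 over the alternatives, and the sign of genes at 0 in Control could not turn. Genes called higher and lower in Dnmt1cKO numbered 132 and 198. DESeq2 called 525 and 1048, limma-voom with quality weights 8 and 31, and the fit without Control 3 and the library labelled Control 4 called 45 and 2. Lower calls numbered 726 with RLE size factors and 47 with library totals alone. Leaving out 1 library gave 60 to 657 higher and 36 to 494 lower calls, fewest without the library labelled Control 4 and most without Control 1. Calls among the 26 other Rhox symbols, 6 as reported, ranged over 0 to 6 with 1 library left out; DESeq2 called 9, limma-voom 0 (7 at an unadjusted p under 0.05), the fit without both Controls 0 (9 unadjusted), and the fit with copies summed 1, Rhox4. The median log2 fold change of all genes, 0.22, was 0.07 with RLE factors and 0.38 with library totals.

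Replicate numbers of the labels do not pair the groups, and the codes b were checked instead: the deviations of libraries with the same code correlated at -0.046 to 0.069, so the code was not taken as a pairing. With the code as a replicate block, 137 genes were called higher, 84 lower and 2 of the other Rhox symbols, and all 5 chosen genes were called. With a pseudocount of 0.5 in place of 2, the difference in mean log2 CPM of Rhox2a was 5.01 in place of 3.34, of Rhox6 6.13 in place of 4.64 and of Rhox9 3.26 in place of 1.90. Causes were not tested. Depth limits Rhox9 and the rarer copies most, since the library labelled Control 4 needs 8.53 CPM to show 3 counts.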

Other observations

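Many Rhox symbols outside the chosen genes had counts in only part of the Dnmt1cKO libraries. Rhox10 was detected in 4 of 8 Dnmt1cKO libraries, Rhox7 in 3 and Rhox13 in 6. In these libraries Rhox7 reached 2.50 CPM and Rhox10 4.89 CPM, and both were at 0 in all Controls. Rhox13 averaged 3.67 CPM in Dnmt1cKO against 1 count in Control, a ratio of 46.9 with a 95% counting interval of 8.42 to 1854, and was not called (edgeR adjusted p = 0.176).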
